A study of Mus musculus with 12 samples.

Results

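The Ly6 family encodes small surface proteins, and 10 of its genes were followed here in RNA from the mouse colon. The 10 genes, Ly6a, Ly6c1, Ly6c2, Ly6d, Ly6e, Ly6g, Ly6i, Ly6k, Lypd3 and Lypd8, were taken by symbol from the 38924 genes of the deposited count tables, and all 10 were found. They were listed by name, with results of these mice known. Each gene was counted in 6 APC Min/+ mice and 6 wild-type (WT) mice, and the question was whether its RNA differed between genotypes and, for Ly6g, whether it ran with the RNA of neutrophils or with that of epithelium.

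All 12 animals were female C57BL/6 mice of 6 weeks, and the labels give the tissue as mucosa of the proximal colon. APC Min/+ mice carry 1 germline Apc allele with a truncating mutation in every cell, so the genotype is not limited to the epithelium, and the labels name no other allele or treatment in either group. Animals arrived in several shipments and the genotypes were caged apart, neither of which the labels assign to single mice, so genotype and cage cannot be told apart. Each sample is whole tissue from 1 mouse, in which fewer cells of a type and less RNA per cell cannot be told apart.

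Ly6 proteins share a compact fold held by disulfide bonds, the LU domain, and most are tied to the outer membrane by a glycosylphosphatidylinositol (GPI) anchor. The family is best known for blood cell antigens. Ly6G is the standard surface mark of mouse neutrophils, Ly6C separates classes of monocytes, and Ly6A (Sca-1) marks blood stem cells. In the gut, Lypd8 is shed by colonocytes and binds the flagella of bacteria, which keeps them from the epithelial surface.

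Total counts on genes ranged from 50313805 to 197914821 per mouse, and values are given as CPM, counts scaled to a common library size with TMM factors. Before TMM scaling, 3 counts equal 0.0152 to 0.0596 CPM. APC Min/+ mice M10_2 and M13_1 stood apart from the other 10 mice. Both lay above all other mice for 2392 of 20311 genes tested (11.8%) and below all others for 2478 (12.2%). In these 2 mice the summed level of 5 posterior homeobox genes (the Hox genes Hoxa13, Hoxb13, Hoxd13 and Hoxd12, with Evx1, which lies beside the Hoxa genes) was 469.9 and 555.1 CPM, against 1.03 to 2.93 CPM in the other 10. Carbonic anhydrase Car1, abundant in proximal colonocytes, was at 965.6 and 2540.0 CPM, against 14620.0 to 32560.0 CPM. The labelled proximal position was thus not matched by these genes in M10_2 and M13_1, whether the sections lay elsewhere in the colon was not tested, and results that rest on them are given with and without them.

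Of the 10 genes, 8 lie in 1 cluster on chromosome 15, and 5 of these (Ly6a, Ly6c1, Ly6c2, Ly6g and Ly6i) are near copies of each other in part, which matters for a count of short reads. The stretch of 100 coding bases in which Ly6g came closest to Ly6a, an abundant member of the same cluster, shows how reads of the 2 genes differ. Positions count from the first base of the start codon, capitals mark bases that differ, and the sequences were read from GENCODE M21 on GRCm38.
Ly6g coding bases 274 to 373: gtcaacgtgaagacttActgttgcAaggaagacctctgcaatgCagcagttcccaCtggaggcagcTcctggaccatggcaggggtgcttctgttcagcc
Ly6a coding bases 274 to 373: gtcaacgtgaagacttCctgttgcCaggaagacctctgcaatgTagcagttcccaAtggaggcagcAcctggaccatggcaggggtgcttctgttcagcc

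Even in this window, 5 of 100 bases differed, and no run of 100 transcript bases of Ly6g (0 of 842) occurred in the transcripts of any other gene. The same was true of Ly6d, Ly6e, Ly6i and Lypd8. Ly6c1 and Ly6c2 were harder to tell apart. They share coding bases 66 to 165 without a difference, shown because a read from here fits both genes.
Ly6c1 and Ly6c2 coding bases 66 to 165: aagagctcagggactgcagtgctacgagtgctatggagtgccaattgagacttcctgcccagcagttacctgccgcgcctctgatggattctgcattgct

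Of the 100-base runs of Ly6c1, 10.1% occurred in Ly6c2 or Ly6a, and of those of Ly6c2, 5.81% occurred in Ly6c1. Ly6a shared 1.45% with Ly6c1. Ly6k shared 18.5% with Gm17189, and Lypd3 shared 1.94% with Gm26550. These are shares of sequence, not of counts, and how many reads of these 5 genes were counted on another gene was not tested.

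RefSeq promoter windows (GRCm38.p6, 250 bases before to 50 after a start) were found for 5 of the 10 genes. A set of 3 is shown up to the base before the annotated gene: Ly6g, its neighbour Ly6f, which had the same pattern over mice, and Ly6c2, a neighbour which did not. Capitals mark CAATAAA, letters that HOX13 proteins are known to bind, and TATAAA.
Ly6g, chr15:75155011-75155239, forward strand: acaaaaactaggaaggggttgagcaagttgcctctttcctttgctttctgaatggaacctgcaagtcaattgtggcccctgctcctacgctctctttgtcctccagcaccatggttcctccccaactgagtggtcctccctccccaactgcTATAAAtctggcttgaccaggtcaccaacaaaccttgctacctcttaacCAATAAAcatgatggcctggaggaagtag
Ly6f, chr15:75268171-75268420, forward strand: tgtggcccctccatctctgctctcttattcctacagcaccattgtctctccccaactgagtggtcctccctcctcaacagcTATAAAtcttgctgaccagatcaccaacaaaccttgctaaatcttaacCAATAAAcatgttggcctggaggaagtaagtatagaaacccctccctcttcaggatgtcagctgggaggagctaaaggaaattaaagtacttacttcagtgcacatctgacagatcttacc
Ly6c2, chr15:75111971-75112221, reverse strand: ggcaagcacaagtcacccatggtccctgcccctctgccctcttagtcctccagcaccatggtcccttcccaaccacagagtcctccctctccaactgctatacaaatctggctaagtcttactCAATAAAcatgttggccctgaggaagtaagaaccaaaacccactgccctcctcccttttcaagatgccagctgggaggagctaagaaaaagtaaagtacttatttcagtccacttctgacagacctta

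CAATAAA, searched on both strands, was in 4.6% of the 32851 RefSeq windows of 300 bases. It was present in the windows of Ly6g, Ly6f, Ly6c2 and 1 of the windows of Ly6c1, and in none of Lypd3 or Lypd8. The bases around CAATAAA are nearly the same in Ly6g, Ly6f, Ly6c2 and Ly6c1, so these matches are not separate occurrences to set against the 4.6%. CAATAAA does not overlap TATAAA, which was in 13.6% of windows and in those of Ly6g and Ly6f and 1 of the windows of Ly6c1. TTCNNNGAA, the letters bound by STAT factors, was in 8.3% of windows and in none of the members found. The letters CAATAAA were present upstream of Ly6g and of Ly6c2, whose values over the 12 mice were unlike. The windows shown were picked with those values known, and that of Ly6c2 lacks TATAAA. Whether HOX13 proteins bind at any of these genes was not tested.

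Lypd8 was by far the most abundant member. Its median level per length over the 12 mice was 4681 RPKM, which is CPM divided by the gene's length in kilobases, and it made up 90.5% to 97.2% of the summed RPKM of the 10 genes. The order of the median levels then ran through Ly6a at 83.0 RPKM, Ly6e at 48.6 RPKM, Ly6c1 at 28.1 RPKM, Ly6c2 at 4.71 RPKM, Ly6d at 1.41 RPKM, Ly6i at 0.666 RPKM, Ly6k at 0.194 RPKM, Ly6g at 0.146 RPKM and Lypd3 at 0.0347 RPKM. Each of the first 4 genes lay above the next in order in 12 of 12 mice. The ranges of Ly6a and Ly6e, and of Ly6e and Ly6c1, overlapped between mice. Ly6k and Ly6g could not be ordered, since Ly6k was above Ly6g in 7 of 12 mice. The files give Ly6g a length of 336 bases, shorter than its annotated coding sequence of 402 bases, so its RPKM rests on part of the gene.

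**Figure D1:**
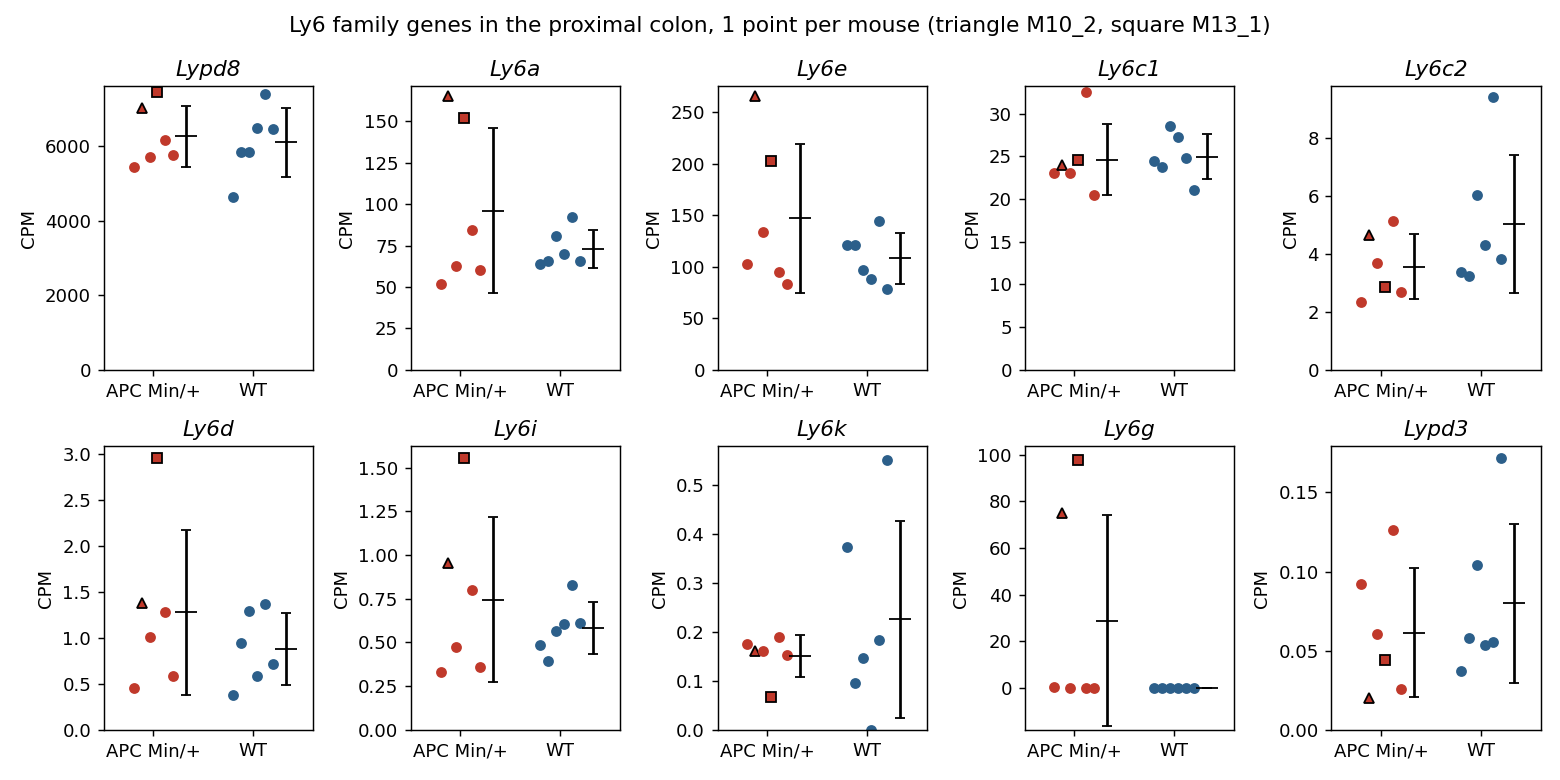
CPM of the 10 genes in each mouse (y axes, linear) by genotype (x axes), with 1 point per mouse and the mean and SD (n = 6) as black bars, whose lower end passes 0 for Ly6g. Ly6g is at 74.9 and 97.9 CPM in M10_2 (triangle) and M13_1 (square) and near 0 elsewhere, and the same 2 mice have the highest values of Ly6a, Ly6e, Ly6d and Ly6i.

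Ly6g (ENSMUSG00000022582.3, chromosome 15, 75155240 to 75159126, forward strand) ranged from 0.0 to 97.9 CPM in APC Min/+ mice with a median of 0.256 CPM, and from 0.0 to 0.0737 CPM in WT mice with a median of 0.0475 CPM. The counts behind these values were 14824 in M10_2 (74.9 CPM), 8862 in M13_1 (97.9 CPM) and 92 in M8_2 (0.472 CPM). M18_2b had 4 counts, M20_1 had 2 counts and M2_A had none, while the 6 WT mice had 27 counts together. The high values were thus those of 2 of the 6 APC Min/+ mice, and the other APC Min/+ mice overlapped the WT range except M8_2. Averaged by genotype, APC Min/+ mice had 28.9 ± 45.1 CPM (SD, n = 6) and WT mice had 0.0452 ± 0.0281 CPM (SD, n = 6).

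The log2 fold change of Ly6g (APC Min/+ over WT) was 9.21 (standard error 2.26, 95% interval 4.32 to 14.09), with an unadjusted p of 0.0013 and FDR = 0.908 after Benjamini-Hochberg adjustment in the quasi-likelihood test of edgeR. Called genes had to reach an FDR under 0.05 and a change of at least 2-fold, and 0.0% of all genes tested were called (0 of 20311), with 5.27% at an unadjusted p under 0.05. With no gene called, a count of 0 called in any list below says nothing particular to that list. Ly6g was the only member of 10 with an unadjusted p under 0.05. It passed the filter of 10 counts in 3 mice only through M8_2, M10_2 and M13_1, all APC Min/+, so that a higher value in this genotype was built into its passing. DESeq2 called 0.133% of genes and called Ly6g (log2 fold change 9.32, FDR = 0.000987). With M10_2 and M13_1 left out Ly6g failed the filter, and in a fit with no filter, added after the data were seen, its log2 fold change was 1.63 (FDR = 0.999, edgeR's quasi-likelihood test).

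The neutrophil genes did not follow Ly6g. S100a8 and S100a9, the calprotectin subunits that fill the cytoplasm of mature neutrophils, were counted 14 and 16 times in M10_2, and 6 and 10 times in M13_1. Mpo, the myeloperoxidase of neutrophil granules made in immature cells, was counted 6 times in M10_2 and 0 times in M13_1. In M13_1, 3 counts equal 0.0364 CPM before TMM scaling, and both mates appear to be counted, so 0 counts may allow more. Ly6g counts exceeded those of S100a9 by 926.5 times in M10_2 and 886.2 times in M13_1. The summed level of the 3 genes was 0.182 CPM in M10_2 and 0.177 CPM in M13_1, inside the range of 0.0 to 0.522 CPM in the other 10 mice. Both mice with high Ly6g thus held the 3 defining neutrophil genes near 0, at levels also seen in mice with 0 to 8 counts of Ly6g.

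By genotype, S100a8 ranged from 0.0 to 0.147 CPM in APC Min/+ mice (median 0.0587 CPM) and from 0.0192 to 0.146 CPM in WT mice (median 0.0636 CPM). S100a9 ranged from 0.0 to 0.168 CPM (median 0.0915 CPM) and from 0.0184 to 0.313 CPM (median 0.0390 CPM), respectively. Mpo reached 0.0410 CPM in APC Min/+ mice and 0.0626 CPM in WT mice, and was at 0 in 7 of 12 mice. The genotypes overlapped for each of these genes. S100a8 differed between genotypes by -0.25 on the log2 scale (± 0.63 standard error, FDR = 0.943, edgeR's quasi-likelihood test), and Mpo was below the filter.

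A wider list of 16 neutrophil genes, which adds granule genes such as Elane and Ltf and receptors such as Csf3r and Cxcr2, summed to 5.81 CPM in M10_2 and 2.58 CPM in M13_1, against 5.89 to 16.6 CPM in the other mice. The 2 mice with high Ly6g thus had the lowest sums. Of the 9 genes of this list that were tested, 0 were called, and 2 (Prtn3 and Fpr1) were lower in both mice than in any other. This was so for 12.2% of all genes tested. Not all were lower in both: Csf3r, the receptor for granulocyte colony-stimulating factor, had 1.37 CPM in M10_2 but 0.420 CPM in M13_1, against 0.536 to 1.70 CPM. Elane was at 0 in 8 of 12 mice and Ctsg in 10 of 12, these 2 mice among them, so neither separates them.

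In the 10 mice other than M10_2 and M13_1, the relation of Ly6g to the neutrophil genes was weak. On the scale of log2(CPM + 0.5), Pearson's r was -0.36 with S100a8 (permutation p = 0.341), -0.19 with S100a9 (permutation p = 0.544) and 0.35 with Mpo (permutation p = 0.301), two-sided, with adjusted p of 0.511, 0.544 and 0.511 over the 3 relations. Spearman's rho was -0.53 (permutation p = 0.119), -0.50 (permutation p = 0.144) and 0.22 (permutation p = 0.546), with adjusted p of 0.215, 0.215 and 0.546. Without the 2 mice farthest from the median of each neutrophil gene, r was -0.24, 0.070 and 0.80 over 8 mice (permutation p = 0.521, 0.922 and 0.125). Spearman's rho in these 8 mice was -0.21, -0.29 and 0.16, so the r of 0.80 with Mpo was not matched by ranks. These rest on 0 to 92 counts of Ly6g and 0 to 30 counts of a neutrophil gene per mouse, and no relation was found at this depth.

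**Figure D2:**
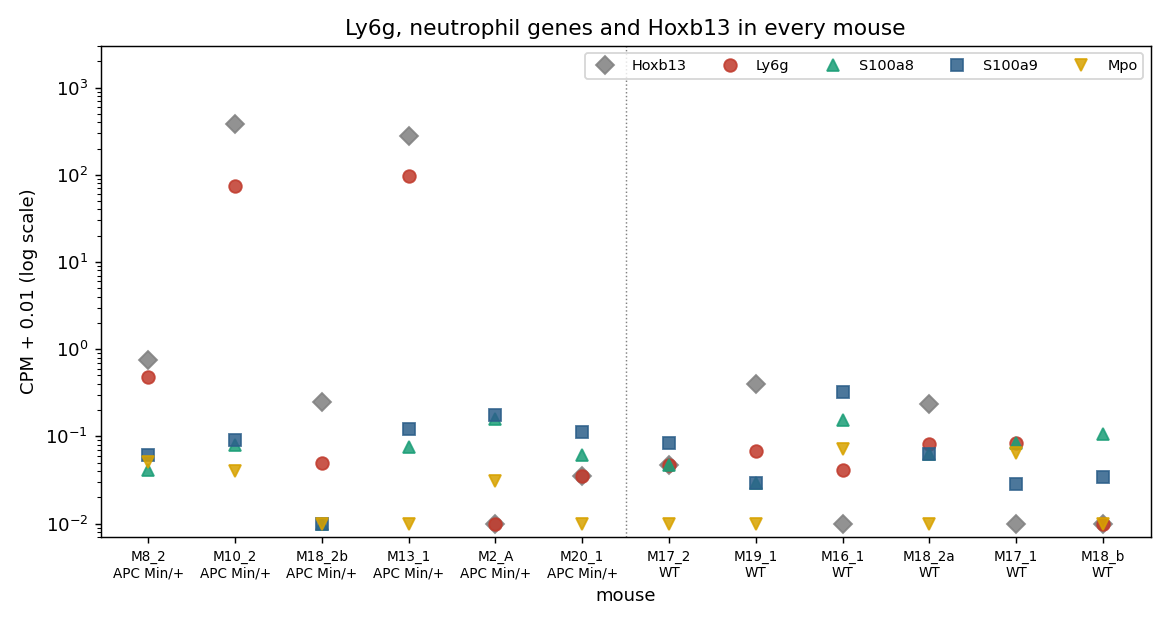
CPM plus 0.01 (y axis, log scale) of Ly6g, the neutrophil genes S100a8, S100a9 and Mpo, and Hoxb13 in each of the 12 mice (x axis, APC Min/+ left of the dotted line). Ly6g and Hoxb13 are high in M10_2 and M13_1 and next highest in M8_2, while the neutrophil genes reach no more than 0.313 CPM in any mouse.

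Epithelial genes were abundant in all mice. The summed level of 8 epithelial genes (keratins Krt8, Krt18, Krt19 and Krt20, with Epcam, Cdh1, Vil1 and Cldn7) was 10470 CPM in M10_2 and 9019 CPM in M13_1, inside the range of 7498 to 14480 CPM in the other mice. Epcam, which joins epithelial cells, was at 1362 and 1284 CPM in the 2 mice and at 1239 to 1624 CPM in the others. Krt20, a keratin of mature surface cells, was lower in both (588.9 and 533.9 CPM) than in any other mouse (984.6 to 2564 CPM). A list of 8 colonocyte genes summed to 11700 and 12450 CPM, against 25380 to 49250 CPM, a gap made mostly by Car1. Its other 7 genes summed to 10730 and 9909 CPM, against 10760 to 16690 CPM, and did not move one way. Of the 8 genes, 4 (Car1, Guca2a, Cdhr5 and Ceacam1) were lower in both mice than in any other, against 12.2% of all genes tested. Car4 was higher in both (924.1 and 953.1 CPM against 241.1 to 582.1 CPM), and Muc3, a membrane mucin, was inside the range of the others at 3571 and 3710 CPM. Levels of Ly6g thus differed by a wide margin between mice of like Epcam level. Hoxb13 was highest in the same 3 mice as Ly6g, with 377.8 CPM for M10_2, 274.7 CPM for M13_1 and 0.744 CPM for M8_2, and 0 to 0.384 CPM in the others. Unlike Ly6g, Hoxb13 was higher in M10_2 than in M13_1. Hoxa13, also high in M10_2 and M13_1 (76.55 and 61.77 CPM), was not raised in M8_2. It was at 0.9745 CPM there, within the 0.921 to 2.75 CPM of the mice other than M10_2 and M13_1. Which cells held the Ly6g RNA was not tested.

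The 5 genes whose values over the 12 mice were most like those of Ly6g, by the root mean square difference of log2(CPM + 0.5) after centring, were Fxyd4 (0.21), Fut9 (0.41), Hottip (0.49), Atp12a (0.50) and Mptx1 (0.59). Fxyd4 and Atp12a encode a regulator of the sodium pump and a proton pump, Fut9 a fucosyltransferase and Hottip a noncoding RNA beside the Hoxa genes. Fxyd4 had 43.8 and 98.7 CPM in M10_2 and M13_1, with 0.0 to 0.298 CPM in the other 10. Atp12a was at 997.4 and 982.7 CPM, with 1.44 to 7.77 CPM in the others. The 5 genes were picked by likeness to Ly6g over these same mice, so their division between 2 mice and 10 follows from the choice.

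Another 4 members had their highest values in M10_2 and M13_1, by a smaller margin. Ly6a (ENSMUSG00000075602.4, chromosome 15, 74994877 to 74998031, reverse strand), the stem cell antigen also made by endothelium and raised by interferon, ranged from 51.7 to 165.2 CPM in APC Min/+ mice with a median of 73.6 CPM, and from 63.6 to 92.5 CPM in WT mice with a median of 67.9 CPM. The 2 mice had 165.2 and 152.2 CPM, and the other 4 APC Min/+ mice had 51.7 to 84.5 CPM. The genotypes overlapped, and their difference was 0.40 on the log2 scale (± 0.28 standard error, FDR = 0.908, edgeR's quasi-likelihood test). Without the 2 mice it was -0.17 (standard error 0.15, FDR = 0.9999), with the sign turned.

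Ly6e (ENSMUSG00000022587.8, chromosome 15, 74955051 to 74959905, forward strand), an interferon-induced protein that alters the entry of viruses into cells, ranged from 83.3 to 265.6 CPM in APC Min/+ mice with a median of 118.1 CPM, and from 78.6 to 144.3 CPM in WT mice with a median of 108.9 CPM. M10_2 reached 265.6 CPM and M13_1 202.6 CPM, above the 133.8 CPM of the next APC Min/+ mouse. A log2 difference of 0.44 between genotypes (± 0.28 standard error, FDR = 0.908, edgeR's quasi-likelihood test) became -0.066 (standard error 0.19) without them. The higher mean of Ly6a and Ly6e in APC Min/+ mice was thus that of 2 animals.

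Interferon-stimulated genes did not follow Ly6a and Ly6e in the same 2 mice. The summed level of 16 such genes was 403.1 CPM in M10_2 and 297.5 CPM in M13_1, against 360.0 to 690.3 CPM in the others. Irf7, a transcription factor of the interferon response, was at 35.4 and 30.6 CPM, below the 107.0 to 170.8 CPM of the other 10 mice. Of the 16 genes, 0 were called and 6 had a log2 fold change above 0, as had 9837 of the 20311 genes tested. The median was -0.024, against -0.0077 over all genes tested. For endothelium, in which Ly6a and Ly6c1 are both made, 8 genes summed to 206.0 CPM in M10_2 and 185.6 CPM in M13_1, against 96.4 to 198.3 CPM in the others, and 0 of 8 were called. The part of these cell types in the Ly6a values was not tested.

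Ly6d (ENSMUSG00000034634.6, chromosome 15, 74762056 to 74763620, reverse strand), a marker of squamous epithelium and of early B cells, was low. It ranged from 0.451 to 2.95 CPM in APC Min/+ mice with a median of 1.14 CPM, and from 0.374 to 1.36 CPM in WT mice with a median of 0.826 CPM. M13_1 had the highest value (2.95 CPM), and M10_2 (1.374 CPM) lay just above WT mouse M17_1 (1.363 CPM). APC Min/+ exceeded WT by 0.53 on the log2 scale (± 0.44 standard error, FDR = 0.910, edgeR's quasi-likelihood test) with all mice and -0.096 (± 0.39) without the 2.

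Ly6i (ENSMUSG00000022586.5, chromosome 15, 74979534 to 74983430, reverse strand), a near copy of Ly6a with 1 difference in the closest 100 coding bases, ranged from 0.328 to 1.56 CPM in APC Min/+ mice with a median of 0.635 CPM, and from 0.394 to 0.829 CPM in WT mice with a median of 0.585 CPM. M13_1 was at 1.56 CPM and M10_2 at 0.955 CPM, above the other 10 mice. This gave a log2 difference of 0.35 between genotypes (± 0.37 standard error, FDR = 0.910, edgeR's quasi-likelihood test), and -0.26 (standard error 0.29) without the 2 mice. Ly6i was counted 26 to 189 times per mouse, Ly6a 3407 to 32708 times, and the part of reads of Ly6a assigned to its near copy was not tested.

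Ly6c1 and Ly6c2 did not share this division. Ly6c1 (ENSMUSG00000079018.4, chromosome 15, 75044018 to 75048830, reverse strand), made by endothelium and lymphocytes, ranged from 20.5 to 32.6 CPM in APC Min/+ mice with a median of 23.5 CPM, and from 21.02 to 28.6 CPM in WT mice with a median of 24.6 CPM. M10_2 and M13_1, at 24.0 and 24.6 CPM, lay in the middle. Genotypes differed by -0.021 on the log2 scale (95% interval -0.27 to 0.23, FDR = 0.978, edgeR's quasi-likelihood test), so that a change of 2-fold lies outside the interval.

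Ly6c2 (ENSMUSG00000022584.8, chromosome 15, 75108158 to 75111970, reverse strand), the Ly6C of inflammatory monocytes, ranged from 2.35 to 5.15 CPM in APC Min/+ mice with a median of 3.27 CPM, and from 3.23 to 9.42 CPM in WT mice with a median of 4.07 CPM. The highest value was that of WT mouse M17_1 (9.42 CPM), and the genotypes overlapped between 3.23 and 5.15 CPM. APC Min/+ differed from WT by -0.50 on the log2 scale (± 0.29 standard error, FDR = 0.908, edgeR's quasi-likelihood test), by -0.54 without M10_2 and M13_1, and by -0.23 without M17_1. A list of 8 monocyte genes, among them Ccr2, Csf1r and Lyz2, summed to 178.5 to 348.1 CPM in APC Min/+ mice and 202.1 to 359.3 CPM in WT mice, and 0 of 8 were called.

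Lypd8 (ENSMUSG00000013643.7, chromosome 11, 58379043 to 58390728, forward strand), the colonocyte protein that holds back bacteria, ranged from 5433 to 7466 CPM in APC Min/+ mice with a median of 5964 CPM, and from 4627 to 7407 CPM in WT mice with a median of 6156 CPM. The mean of 6265 ± 811.6 CPM (SD, n = 6) in the former stood beside 6115 ± 926.2 CPM (SD, n = 6) in the latter, and the genotypes overlapped over most of their range. A log2 difference of 0.035 was found (95% interval -0.27 to 0.34, FDR = 0.970, edgeR's quasi-likelihood test), and -0.084 (95% interval -0.38 to 0.21) without M10_2 and M13_1. M10_2 and M13_1 had 7040 and 7466 CPM, in the upper part of the range.

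Ly6k and Lypd3 were near the limit of detection. Ly6k (ENSMUSG00000044678.5, chromosome 15, 74796874 to 74799986, reverse strand), a protein needed for sperm function, ranged from 0.0663 to 0.189 CPM in APC Min/+ mice with a median of 0.161 CPM, and from 0.0 to 0.551 CPM in WT mice with a median of 0.165 CPM, from 0 to 45 counts per mouse. WT mice M18_b and M17_2 had the highest values and WT mouse M18_2a had no count. The log2 difference was -0.53 (95% interval -1.93 to 0.88, FDR = 0.911, edgeR's quasi-likelihood test).

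Lypd3 (ENSMUSG00000057454.4, chromosome 7, 24636550 to 24641118, forward strand), a surface protein of squamous epithelium, ranged from 0.0202 to 0.126 CPM in APC Min/+ mice with a median of 0.0522 CPM, and from 0.0374 to 0.172 CPM in WT mice with a median of 0.0565 CPM, from 2 to 18 counts per mouse. Its log2 difference was -0.38 (95% interval -1.46 to 0.71, FDR = 0.911, edgeR's quasi-likelihood test). The intervals of both genes include a 2-fold difference, which was thus not excluded. This is not particular to genes of low depth, since the 95% interval of the abundant Ly6e (-0.16 to 1.04) includes it too. A list of 10 genes of squamous epithelium (among them Krt5, Krt14 and Sprr1a) summed to 4.64 CPM in M10_2 and 6.16 CPM in M13_1, against 9.22 to 87.5 CPM in the other mice. This gap was that of Sprr1a, a cornified envelope gene, at 0.838 and 1.92 CPM against 6.06 to 83.2 CPM. Without Sprr1a the other 9 genes summed to 3.80 and 4.24 CPM, inside the 2.71 to 4.28 CPM of the other mice, and 0 of the 7 genes tested were called.

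Of the 10 members, 0 were called and 6 had a log2 fold change above 0, as had 9837 of the 20311 genes tested. The median of the members was 0.19, or -0.096 over the 9 tested without M10_2 and M13_1. The APC Min/+ and WT values did not overlap for 0 of 10 members, against 0.118% of all genes. M10_2 and M13_1 were both above the other 10 mice for 5 of 10 members, against the 11.8% of all genes given above. These were Ly6g, Ly6a, Ly6e, Ly6d and Ly6i. Both mice were below all others for 0 of 10 members, against 12.2%. The 2 mice were set apart with their Ly6g values known, so the place of Ly6g in this count was fixed in advance. Ly6d entered it by 1.374 CPM in M10_2 against 1.363 CPM in the next mouse, and Ly6i is a near copy of Ly6a. The sign of the log2 fold change turned without the 2 mice for 5 of 9 members (Ly6a, Ly6d, Ly6e, Ly6i and Lypd8), and for 25.0% of all genes.

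**Figure D3:**
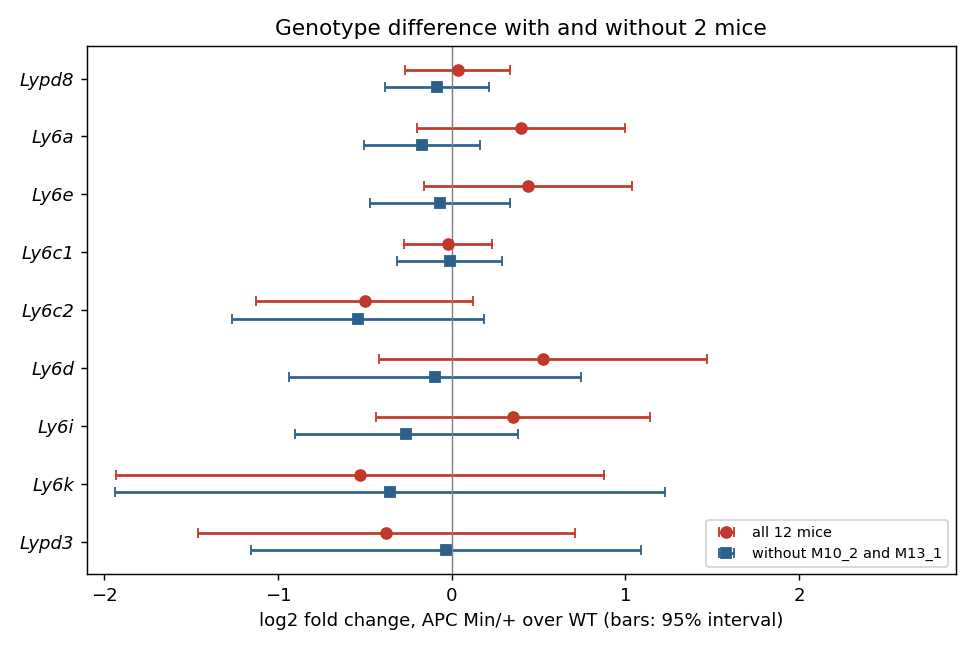
Log2 fold change of APC Min/+ over WT (x axis) with its 95% interval for 9 members (y axis), from all 12 mice (circles) and without M10_2 and M13_1 (squares), Ly6g being left out since it failed the count filter without them. Every interval includes 0, and the values of Ly6a, Ly6e, Ly6d, Ly6i and Lypd8 change sign.

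The cluster on chromosome 15 holds 21 family genes between 74714839 and 75599481, of which 13 were tested. Both mice were highest for 6 of these 13 and lowest for 0, against 11.8% and 12.2% of all genes tested. The 6 were the 5 members above and 9030619P08Rik, so this count largely repeats theirs, with the place of Ly6g fixed as there. 9030619P08Rik, annotated as a transcribed pseudogene, had 17.9 and 17.13 CPM in M10_2 and M13_1, against 0.472 to 3.40 CPM in the others. Of the genes below the filter, Ly6f had 93 counts in M10_2 and 91 in M13_1 (0.470 and 1.005 CPM), against 0 to 6 counts in the others, and Slurp1 and Ly6l were also highest in both. Ly6c1 and Ly6c2, which lie between Ly6a and Ly6g, were not, nor were Lynx1, Ly6k, 2010109I03Rik, Ly6h and Gpihbp1. High values in these mice were thus found on both sides of Ly6c1 and Ly6c2, which were at the level of the other mice.

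**Figure D4:**
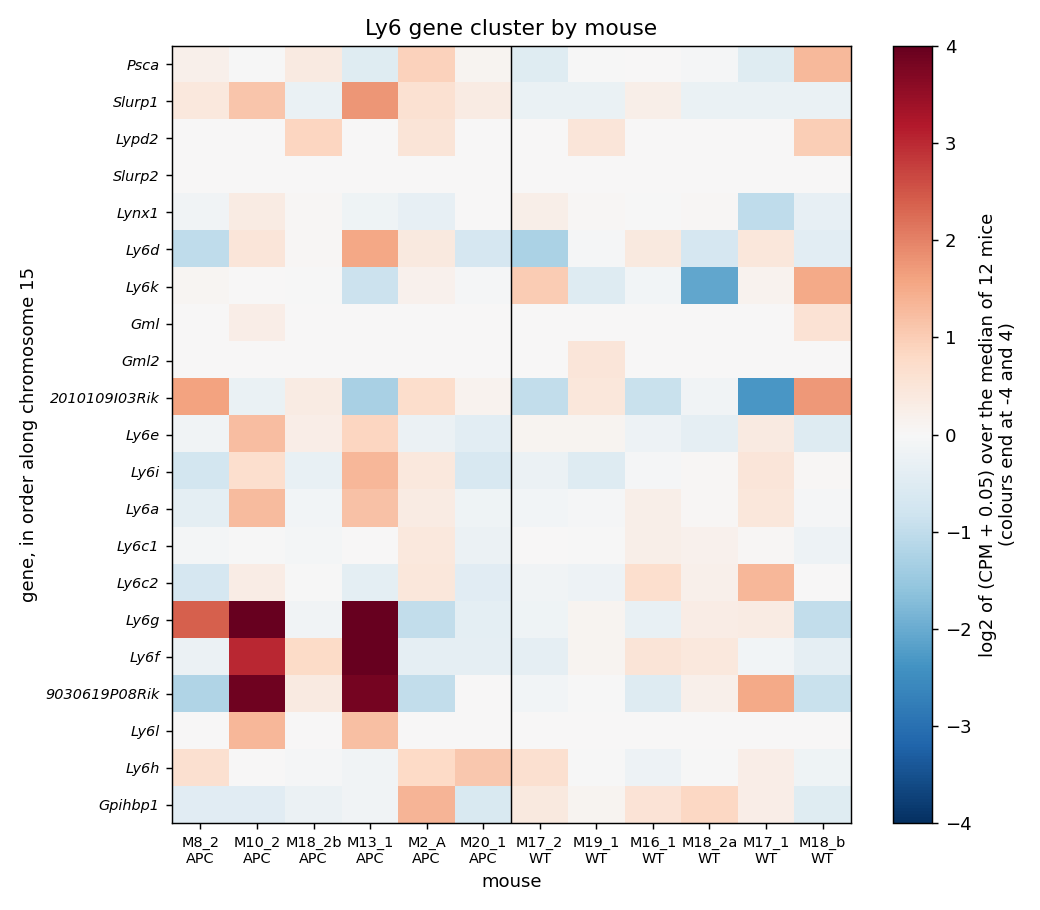
Heat map of 21 family genes in their order along chromosome 15 (rows) in 12 mice (columns, APC Min/+ left of the line), coloured by log2 of (CPM + 0.05) over the median of the 12 mice, with colours ending at -4 and 4. Ly6g, Ly6f and 9030619P08Rik are darkest in M10_2 and M13_1, and Ly6c1 is pale throughout.

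The rest of the family was examined as a list of 42 further genes, of which 35 were found and 17 tested. None passed (0 of 17 called, as 0 of all 20311 genes tested were). A log2 fold change above 0 was found for 13 of the 17, and for 9837 of the 20311. The median of the 17 was 0.20, or 0.044 without M10_2 and M13_1. An unadjusted p under 0.05 was found for 3 genes of the 17, against 5.27% of all genes tested. Ly6g6e had 13.8 CPM in M10_2 and 10.8 CPM in M13_1 against 2.27 to 6.10 CPM in the others, a log2 fold change of 0.90 that was 0.24 without them. The log2 fold change of 9030619P08Rik was 2.21, and -0.60 without them. Ly6g6f alone kept its size, at -0.65 with all mice and -0.64 without the 2 (FDR = 0.908 and 0.9999, edgeR's quasi-likelihood test).

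Among the abundant genes of that list, 2010109I03Rik (median 62.7 RPKM) ranged from 48.6 to 360.5 CPM in APC Min/+ mice and from 23.7 to 395.9 CPM in WT mice. Cd59a, which shields cells from complement, had 11.7 to 23.2 CPM and 14.2 to 17.7 CPM, respectively, and Lynx1, a modulator of acetylcholine receptors, 14.97 to 23.6 CPM and 9.33 to 22.2 CPM. Plaur, the urokinase receptor, had 3.15 to 11.2 CPM and 4.41 to 8.97 CPM, with its lowest values in M10_2 and M13_1. The genotypes overlapped for all 4.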

How the data were processed

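RNA of the proximal colon of 12 mice (6 APC Min/+, 6 WT; each a separate mouse per the labels) was sequenced as paired reads. The authors aligned them with STAR 2.3.0 to GRCm38.p2 and counted them on genes with featureCounts (submitters' processing notes), and deposited raw counts with a gene length. Annotation release, strand and the handling of multiple hits are not given in the sources used here. Of counts from 1 to 20, 75.7% to 81.2% were even, so both mates appear to be counted, and counts are not independent molecules. Symbols came from GENCODE M21 (37607 of 38924 genes). Counts were fitted with edgeR 4.0.16 in R 4.3.3 (TMM, genes with at least 10 counts in 3 mice, quasi-likelihood test by genotype, Benjamini-Hochberg over 20311 genes). A standard error is the log2 fold change over the root of F. The fit was tested on simulated data. Alternatives were size factors, no filter, DESeq2 1.42.0, other edgeR tests, and leaving out mice. Genes named are the 10 members, 3 neutrophil genes, the 5 most like Ly6g, and the most abundant or lowest-p genes of each list; others whose values are given (Prtn3, Fpr1, Elane, Ctsg, Csf3r, Cdhr5, Car4, Ly6f, Slurp1, Ly6l) were chosen after their values were seen, and further names only say what a list holds. Members and lists were chosen with earlier results of these data known. Floors of 3 counts cover counting error only, and take counts as independent. The labels give no batch.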

Additional observations from a re-analysis of the deposited data

Results flagged for a closer look

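In groups of 6 mice, a mouse was marked when its gap to the nearest other mouse took most of the range of the group (Dixon's test), which chance alone does in about 1 of 20 groups. This was the case in 2 of 26 groups, which is near that rate. Ly6k was lowest among APC Min/+ mice in M13_1 at 0.0663 CPM (6 counts), with the others at 0.153 to 0.189 CPM. S100a9 was highest among WT mice in M16_1 at 0.313 CPM (30 counts), with the others at 0.0184 to 0.0747 CPM. Ly6g was not marked, since 2 mice shared the high values.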

How the results depend on the processing

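Other tests changed the counts of genes called. DESeq2 called 27 genes, edgeR's likelihood ratio test 15 and edgeR's exact test 10, against 0 in the quasi-likelihood test (1071 at an unadjusted p under 0.05), and of the members DESeq2 and the likelihood ratio test called 1, Ly6g, and the others 0. Size factors, no filter and leaving out any mouse gave 0 genes. Without M10_2 and M13_1 the log2 fold change turned to -0.17 for Ly6a, -0.066 for Ly6e, -0.26 for Ly6i, -0.096 for Ly6d and -0.084 for Lypd8, and Ly6g gave no value behind the filter. When single mice were dropped in turn, it ranged between -0.10 and 0.032 for Ly6c1, -0.81 and 0.0012 for Ly6k (above 0 without M18_b) and -0.034 and 0.097 for Lypd8 (below 0 without M10_2, M13_1 or M17_2), between 0.0030 and 0.51 for Ly6i and 0.090 and 0.70 for Ly6d (both lowest without M13_1), between -0.66 and -0.017 for Lypd3 (nearest 0 without M18_b), 0.17 and 0.52 for Ly6a, 0.19 and 0.57 for Ly6e, and 8.996 and 9.49 for Ly6g, which failed the filter without M8_2, M10_2 or M13_1. With no filter, added after the data were seen, those 3 fits gave 9.47, 8.65 and 8.30. Pearson's r of Ly6g with S100a9 turned from -0.19 to 0.070 without the 2 mice farthest from the median. That with Mpo rose from 0.35 to 0.80 (permutation p = 0.125). The list sums without Car1 or Sprr1a were added after the data were seen. The cause of the changes above was not tested. Depth limits Ly6k, Lypd3 and the neutrophil genes, which had 0 to 45 counts per mouse.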

Other observations

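T cell genes and the enzymes that build the GPI anchor were also measured as lists. The 8 T cell genes (among them Cd3g, Cd3e, Trac and Lck) summed to 11.8 CPM in M10_2 and 11.2 CPM in M13_1, against 14.4 to 24.2 CPM in the other 10 mice. Of the 8, 6 were lower in both than in any other mouse, against 12.2% of all genes tested. Cd3g, a chain of the T cell receptor complex, was at 1.17 CPM in both, with 1.96 to 3.76 CPM in the others. Of the 8 genes, 0 were called, 1 had an unadjusted p under 0.05, and the median log2 fold change was -0.34, or -0.17 without the 2 mice.

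The 21 genes of GPI anchor synthesis, through which most Ly6 proteins reach the cell surface, summed to 674.3 to 814.4 CPM in APC Min/+ mice and 653.7 to 807.6 CPM in WT mice. In edgeR's quasi-likelihood test 0 of 21 were called, 0 had an unadjusted p under 0.05, and the median log2 fold change was -0.015. Pigt, a subunit of the enzyme that attaches the anchor, ranged from 14.0 to 110.7 CPM over the 12 mice.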
